A study of Mus musculus with 70 samples.

Results

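The 10 genes described here, of 50789 rows in the count table, code for the elastic fibre and for the alveolar myofibroblast that makes it. They were chosen by name: elastin and the fibrillins (Eln, Fbn1, Fbn2), the assembly proteins Fbln5 and Ltbp4, the cross-linking enzymes Lox and Loxl1, the growth factor receptor Pdgfra, and the contractile genes Acta2 and Tagln. All 10 were found by symbol, and they were chosen with earlier results of these data known. They were followed in mouse lung at postnatal day 6, with cortex and cerebellum at 12 weeks of age as the contrast, by RNA sequencing of polyadenylated RNA from flash-frozen tissue. Each tissue was taken from mice labelled Cic-S-KO, mice labelled Cic-L-KO, and WT littermates of both lines pooled into one control group. The knockouts are of the short (S) and the long (L) isoform of Cic, which encodes the transcriptional repressor Capicua. There were 8 samples in each of the 9 groups except Cic-S-KO cortex and Cic-S-KO cerebellum, which had 7. The labels give neither the deleted exons, nor the sex of the mice, nor the line each WT sample came from. They do not say whether samples of different tissues came from the same mice, and where samples of a group were not from separate animals, the p-values measure the spread between samples only.

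Elastic fibres give the lung its recoil. In the newborn lung, alveolar myofibroblasts, which carry the PDGF receptor Pdgfra, lay elastin down at the edges of the septa that divide the air spaces. Tropoelastin is deposited on a scaffold of fibrillin microfibrils, guided there by fibulins and latent TGF-beta binding proteins, and is then cross-linked by lysyl oxidases. Pdgfra in the brain is known above all as a gene of oligodendrocyte precursors, and the fibre genes there are mostly expressed by vessels and meninges.

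Start sites of Acta2, Fbln5 and Pdgfra, whose lung level differed between genotypes, are shown first, with that of Myl9. Fbn2 differed between the knockouts but has no window here. CIC binds defined octamers. Contractile genes are known targets of serum response factor, which binds the CArG box (CC, a run of A or T, then GG). RefSeq windows of 300 bases on GRCm38.p6, from 250 bases before to 50 after a start, were found for 5 of the 10 genes (Fbn1, Fbln5, Ltbp4, Pdgfra and Acta2), 8 windows in all. Each is written 5′ to 3′ on the gene's strand, and capitals mark a CArG box with at most 1 mismatch in its A or T run, an octamer TGAATGAA or TGAATGGA on either strand, or a TATAAA or TATATAA in the direction of transcription.
Acta2, chr19:34255324-34255623, minus strand: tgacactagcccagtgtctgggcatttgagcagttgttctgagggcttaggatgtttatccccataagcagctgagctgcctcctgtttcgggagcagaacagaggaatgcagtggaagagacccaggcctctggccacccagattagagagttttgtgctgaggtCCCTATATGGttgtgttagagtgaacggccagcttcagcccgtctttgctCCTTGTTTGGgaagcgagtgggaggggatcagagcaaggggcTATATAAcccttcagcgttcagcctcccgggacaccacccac
Myl9, chr2:156775214-156775513, plus strand: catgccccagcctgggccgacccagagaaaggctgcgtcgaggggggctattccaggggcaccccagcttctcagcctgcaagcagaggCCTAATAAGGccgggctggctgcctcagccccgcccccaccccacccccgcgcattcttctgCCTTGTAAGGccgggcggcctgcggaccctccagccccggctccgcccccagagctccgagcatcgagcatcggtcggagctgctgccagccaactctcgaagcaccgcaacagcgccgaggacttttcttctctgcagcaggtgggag
Fbln5, chr12:101819070-101819369, minus strand: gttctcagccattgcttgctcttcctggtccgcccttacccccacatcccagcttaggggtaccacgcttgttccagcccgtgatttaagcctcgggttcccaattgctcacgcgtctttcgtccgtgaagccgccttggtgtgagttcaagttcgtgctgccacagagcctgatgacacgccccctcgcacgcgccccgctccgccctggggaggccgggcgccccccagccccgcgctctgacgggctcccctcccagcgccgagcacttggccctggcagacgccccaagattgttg
Pdgfra, chr5:75152001-75152300, plus strand: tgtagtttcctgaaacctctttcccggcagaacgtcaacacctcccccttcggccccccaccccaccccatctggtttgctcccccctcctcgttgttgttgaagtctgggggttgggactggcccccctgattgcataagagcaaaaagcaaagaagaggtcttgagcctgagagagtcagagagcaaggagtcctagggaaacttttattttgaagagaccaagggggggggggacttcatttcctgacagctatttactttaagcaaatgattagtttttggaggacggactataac
Acta2 was the only one of the 5 genes with a CArG match, 84 and 34 bases before the start, each with 1 mismatch. Myl9, the smooth muscle myosin light chain whose lung level followed that of Acta2 most closely, is shown beside it: its matches lay 161 and 99 bases before the start, and the first had no mismatch. The windows of the contractile genes Tpm2 and Cnn1, not shown, held 0 matches. Of 17 smooth muscle and myofibroblast contractile genes with a window, 4 had a match with at most 1 mismatch. The TATATAA of Acta2 lies just after the RefSeq start used here. A CArG box with at most 1 mismatch was in 9.984% of all 32851 mouse windows and one with no mismatch in 1.629%. Fbln5 has another RefSeq start, whose window, chr12:101818435-101818734, is not shown. None of the 8 windows held either CIC octamer, which 2.469% of all windows held. These are letters within 300 bases and say nothing about factor binding there or elsewhere.

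Library totals were 17798655 to 35523037 counts in lung, 20730808 to 32548951 in cortex and 20440799 to 30464699 in cerebellum. All lung libraries carry batch label 1 and all brain libraries batch label 2, so tissue, age and batch cannot be told apart. The counts are per gene and cannot show which isoform was lost. The Cic gene as a whole was higher in Cic-S-KO lung than in WT (log2 fold change 0.31, adjusted p = 6.41e-05 by edgeR's quasi-likelihood test with Benjamini-Hochberg adjustment over all genes, the test used throughout) and not called in Cic-L-KO lung (-0.039, adjusted p = 0.681). Cic was also higher in cortex of both knockouts (0.63 in Cic-S-KO, adjusted p = 1.35e-12, and 0.88 in Cic-L-KO, adjusted p = 9.49e-18). It was higher in Cic-L-KO cerebellum too (0.15, adjusted p = 0.0253). The Cic-S-KO cerebellum estimate was also 0.15, at the threshold and not called (adjusted p = 0.05). Between the knockouts Cic was not called in cerebellum (adjusted p = 0.964). Cic-S-KO lung replicate 5 stood apart in neuronal genes: Syt1, a synaptic vesicle gene, was at 9.886 CPM (counts scaled to library size) there, against at most 1.382 CPM in any Cic-L-KO lung and at most 0.8032 CPM in any WT lung.

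In WT lung the members spanned a wide range of levels. Levels are compared between genes as CPM per kilobase of exon. Eln led at 807.5 ± 95.3 (SD, n = 8), above Acta2, the smooth muscle actin that marks myofibroblasts, at 318 ± 20.1. Then came Fbln5 at 100.1 ± 4.87, Ltbp4 at 97.22 ± 4.95, Loxl1 at 86.72 ± 4.7 and Fbn1 at 64.02 ± 9.21. The samples of each of these 4 genes overlapped those of its neighbour in this order. Lox at 39.63 ± 3.36, Pdgfra at 21.13 ± 1.17 and Fbn2, the fibrillin known mainly from development, at 7.209 ± 0.798 followed without overlap. Tagln, which codes for the actin-binding protein SM22-alpha, was last at 0.5463 ± 0.173, on a median of 27.5 counts per WT library. Smooth muscle myosin Myh11 was at 41.23 ± 5.54 CPM per kilobase in the same samples, so Tagln did not have the level of its contractile neighbours. Of the annotated exon bases of Tagln, 67.86% overlap exons of Gm48529 or Pcsk7 on the opposite strand, and whether counting used strand is not given in the sources used here. The part of that overlap in the low Tagln counts was not tested. A smaller share, 20.14%, of Fbn1's exon bases is shared with Gm9913 in the same way.

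The order was different in the adult brain. Ltbp4 led in WT cortex at 9.323 ± 1.07 CPM per kilobase and in WT cerebellum at 4.689 ± 0.578 (SD, n = 8 each), followed in both by Pdgfra at 7.859 ± 0.672 and 3.129 ± 0.222. In cortex the samples of these 2 genes overlapped, and in cerebellum they did not. Eln, first in lung, was at 0.8856 ± 0.261 in cortex and 0.8235 ± 0.0804 in cerebellum. Tagln was again last, at medians of 0 to 2 counts per library in each brain group.

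**Figure D1:**
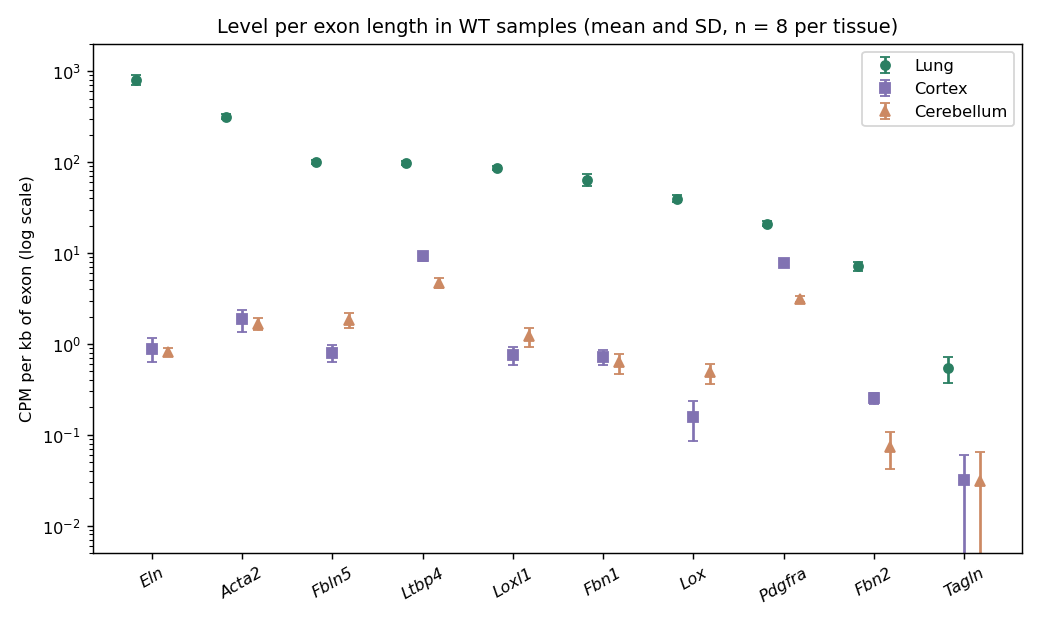
Level of the 10 genes in WT lung, cortex and cerebellum, in CPM per kilobase of exon on a log axis; markers are means of 8 samples and bars are SD. Eln is highest in lung at 807.5 while Ltbp4 leads in both brain regions; lower bars of Tagln in brain run off the axis because its SD is about as large as its mean.

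In Cic-S-KO lung, Fbln5 and Acta2 fell against WT and no member rose. These are 2 of the 10 genes, beside 15.7% of all 16695 genes called in either direction, 9.99% higher and 5.73% lower. All 10 estimates were negative, with a median log2 fold change of -0.11 against -0.001 over all genes, although those of Eln, Ltbp4 and Pdgfra turned positive when fold changes were centred within bins of exon length. Because tissue RNA was measured in bulk, fewer cells of a type and less RNA per cell cannot be told apart here or in any result that follows.

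Among the structural components, none was called in Cic-S-KO lung in the main fit. With the replicate number fitted as a block, edgeR called Fbn1 (adjusted p = 0.0421) and Fbn2 (adjusted p = 0.0177) lower. Eln, on chromosome 5 (GRCm38, 134702593 to 134747323, minus strand), had 5174 CPM in the lowest WT lung, a median of 6567 and 7538 in the highest. The Cic-S-KO lungs ran from 4892 over a median of 6395 to 7789 CPM, and the Cic-L-KO lungs from 5215 over 6275 to 7397 CPM. The 3 groups lay on top of each other. The difference in log2 between Cic-S-KO and WT was -0.049, with a 95% interval of -0.21 to 0.11 (adjusted p = 0.726), and that between Cic-L-KO and WT was -0.047 (-0.21 to 0.12, adjusted p = 0.796). A change in Eln larger than these bounds is thus outside the interval, while smaller ones could not be resolved.

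Fbn1, the main fibrillin of mature microfibrils, ran from 663.3 to 990.4 CPM in WT (median 750) and from 510.9 to 794 CPM in Cic-S-KO (median 674.8). Only 2 of the 8 Cic-S-KO lungs lay below all WT lungs, and the log2 fold change of -0.21 (SE 0.0919) was not called (adjusted p = 0.126). Fbn2 overlapped in the same way: 81.93 to 107.6 CPM in WT (median 96.84) and 69.85 to 95.74 CPM in Cic-S-KO (median 79.86). With 4 of 8 Cic-S-KO lungs below all WT, its log2 fold change was -0.21 (SE 0.0984, adjusted p = 0.141).

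Fbln5, the fibulin that binds tropoelastin and guides it to the microfibril, was called. Its WT lungs ran from 633.7 over a median of 698.6 to 731.4 CPM, and its Cic-S-KO lungs from 519.6 over 603.4 to 635.2 CPM. The groups touched only at their edges: 6 of 8 Cic-S-KO lungs lay below every WT lung. The mean moved from 692.1 ± 33.7 to 591.8 ± 43 CPM (SD, n = 8 each), a log2 fold change of -0.23 (SE 0.0686, edgeR adjusted p = 0.0249). The Cic-L-KO lungs were the most spread, from 528.2 to 796.1 CPM, with 3 above and 4 below all WT, and were not called (-0.054, adjusted p = 0.704). The Fbln5 call in Cic-S-KO held without each of the 24 lung libraries in turn, with adjusted p between 0.0108 and 0.0485. It was lost with the same centring by exon length (-0.19, adjusted p = 0.077).

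Ltbp4, a latent TGF-beta binding protein that works with Fbln5 in fibre assembly, varied little between genotypes. Its WT lungs ran from 571.5 to 664.4 CPM (median 634.6), the Cic-S-KO lungs from 581 to 682.7 (median 617.4) and the Cic-L-KO lungs from 585.7 to 693.1 (median 638.9). Neither knockout was called, at -0.019 (adjusted p = 0.797) and 0.023 (adjusted p = 0.804). The gene lies on chromosome 7, 2.01 Mb from Cic itself.

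The cross-linking enzymes were not called in either knockout lung. Lox was at 189.4 ± 16.1 CPM in WT lungs, 186.3 ± 15.1 CPM for Cic-S-KO and 194.9 ± 28.9 CPM for Cic-L-KO (SD, n = 8 each). Loxl1 was at 285.9 ± 15.5, 272.5 ± 23.6 and 279.3 ± 20.9 CPM in the same order. The largest of their 4 differences from WT was -0.069 on the log2 scale, for Loxl1 in Cic-S-KO, with a 95% interval of -0.17 to 0.034.

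Acta2 was the other gene called lower in Cic-S-KO lung. WT lungs ran from 638.1 over a median of 702.4 to 753.5 CPM, Cic-S-KO lungs from 540.8 over 632.4 to 674.9, and Cic-L-KO lungs from 603.4 over 674.6 to 789.6. In Cic-S-KO, 5 of 8 samples were below all WT samples. The mean fell from 698.3 ± 44.1 to 618.5 ± 53.6 CPM (SD, n = 8 each), with a log2 fold change of -0.18 (SE 0.0596, edgeR adjusted p = 0.0442). This call sat at the threshold. It was lost in 9 of the 24 fits that left out 1 lung library, among them the fit without Cic-S-KO replicate 5 (-0.15, adjusted p = 0.0792), and the adjusted p ran from 0.0285 to 0.0808. The other libraries whose removal ended it were Cic-S-KO replicates 1, 4 and 6 and WT replicates 1, 2, 3, 5 and 6. Tagln gave no call at its low counts: 0.5492 to 1.686 CPM in WT lungs, 0.6889 to 1.576 CPM for Cic-S-KO and 0.8428 to 1.499 CPM for Cic-L-KO.

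Pdgfra, the receptor that marks the myofibroblast lineage, rose in Cic-L-KO lung. It is 1 of 10 members, beside 4.89% of all genes called in Cic-L-KO lung in either direction, 2.62% higher and 2.28% lower. WT lungs ran from 196.4 over a median of 210.7 to 232.9 CPM and Cic-L-KO lungs from 230.4 over 263.3 to 284.8. Of the Cic-L-KO lungs, 7 of 8 were above every WT lung. The mean went from 211.9 ± 11.7 to 260.5 ± 18.4 CPM (SD, n = 8 each), a log2 fold change of 0.30 (SE 0.0661, edgeR adjusted p = 0.00818), and the call held without each lung library in turn (adjusted p 0.00279 to 0.0235). The Cic-S-KO lungs ran from 160.1 to 234.2 CPM around a median of 213.1, across and below the WT range (-0.050, adjusted p = 0.647). Over the 10 genes the median log2 fold change in Cic-L-KO lung was 0.032, with 6 positive.

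**Figure D2:**
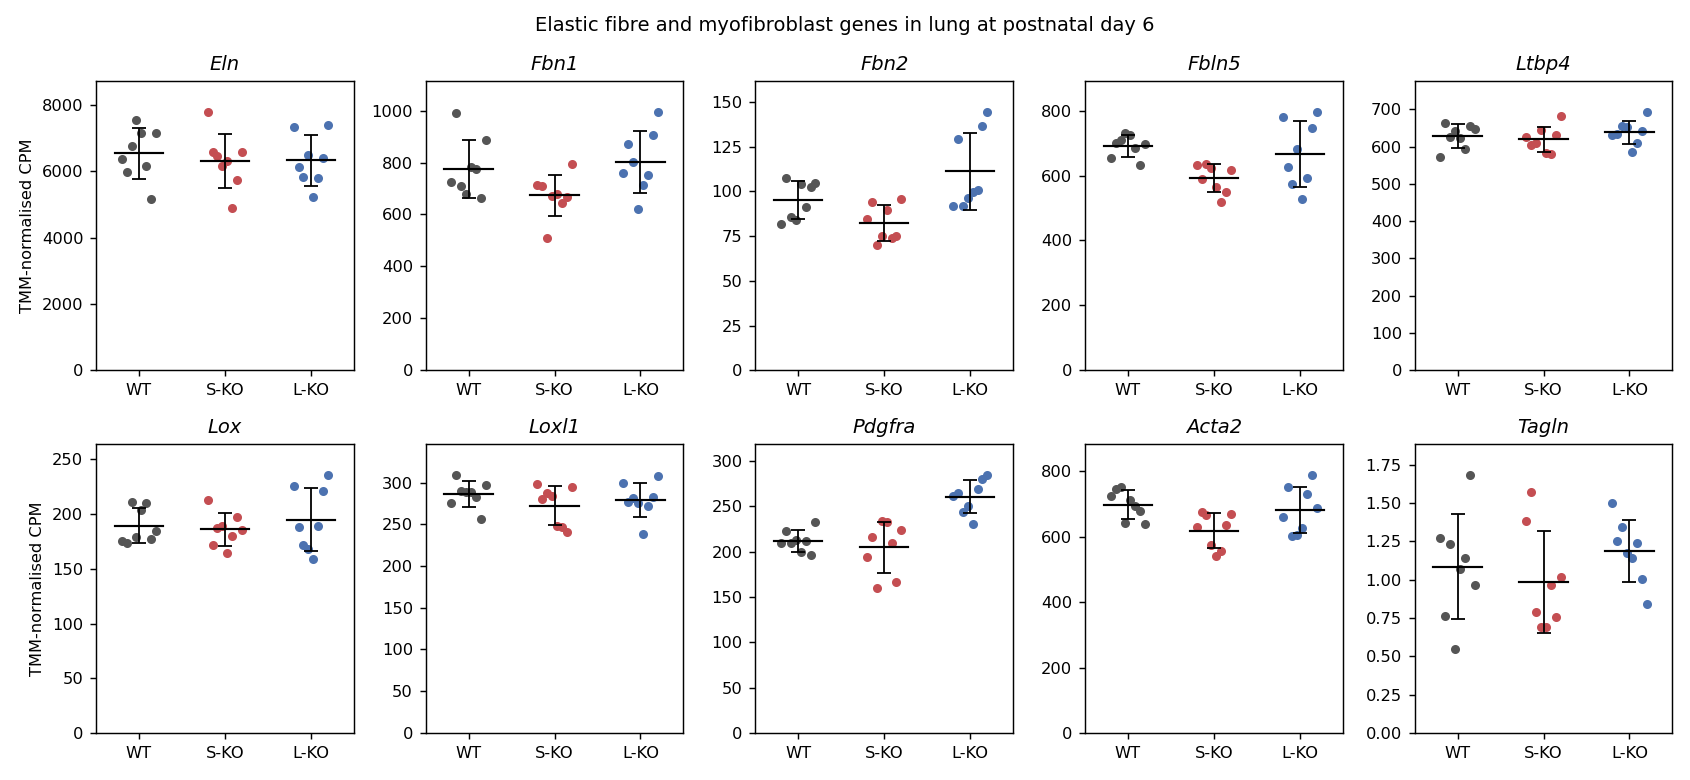
CPM of the 10 genes in each lung sample by genotype, 8 samples a group, with the mean and SD; each panel has its own linear axis. Fbln5 and Acta2 are lowest in Cic-S-KO, Pdgfra is highest in Cic-L-KO, and the Eln groups overlap throughout.

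The 2 knockouts were also compared directly in lung, in the fit that also holds the WT samples. Fbn2 and Pdgfra were lower in the Cic-S-KO lungs, 2 of 10 members beside 12.2% of all genes called in either direction, 7.31% higher and 4.85% lower. For Fbn2 the Cic-S-KO lungs, at 69.85 to 95.74 CPM, and the Cic-L-KO lungs, at 91.6 to 144.4 CPM, overlapped only at the edge, and the log2 fold change was -0.44 (SE 0.0985, edgeR adjusted p = 0.00443). Against WT the same gene was not called in either knockout in the main fit, the Cic-L-KO estimate being 0.22 (adjusted p = 0.194). With the replicate number as a block, edgeR called Fbn2 against WT in both knockouts. It was lower in Cic-S-KO (-0.21, adjusted p = 0.0177) and higher in Cic-L-KO (0.21, adjusted p = 0.034). For Pdgfra the log2 fold change between knockouts was -0.35 (SE 0.0661, edgeR adjusted p = 0.000776). Fbn1 (-0.25, adjusted p = 0.0725), Fbln5 (-0.17, adjusted p = 0.103) and Acta2 (-0.14, adjusted p = 0.126) were not called. Fbn1 was called by DESeq2 (-0.26, adjusted p = 0.0406) and in 3 of the 24 fits without 1 library (Cic-L-KO replicate 4, Cic-S-KO replicate 8 or WT replicate 2). With the replicate number as a block edgeR called Fbn1 too (-0.25, adjusted p = 0.0166). Fbln5 was called without Cic-L-KO replicate 5 (adjusted p = 0.0199), and Acta2 under centring by exon length (-0.20, adjusted p = 0.0413). All 10 estimates were negative, with a median of -0.16 against 0.008 over all genes. The smallest was that of Eln at -0.002, whose sign changed in 9 of the 24 fits without 1 library and under centring by exon length (0.047).

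Other genes of the same pathways were read from 4 lists in the same lung tests. The lists were chosen with earlier results of these data known, so their counts beside all genes are descriptions only. Of all genes, 2.62% were called higher and 2.28% lower in Cic-L-KO lung. Between the knockouts 7.31% were higher and 4.85% lower in Cic-S-KO. The contractile list, of smooth muscle and myofibroblast genes, had the most calls in Cic-S-KO lung: 8 of its 19 tested genes fell and 0 rose, beside 5.73% and 9.99% of all genes, with a median log2 fold change of -0.21. Filip1l, which codes for a filamin A-interacting protein, fell the most of the 4 with the smallest p, from 200.2 ± 32.8 to 142.6 ± 21.3 CPM (SD, n = 8 each; log2 fold change -0.49, edgeR adjusted p = 0.000881). The actin-binding caldesmon gene Cald1 (-0.24, adjusted p = 0.00489), the smoothelin gene Smtn (-0.22, adjusted p = 0.00495) and the myosin light chain kinase gene Mylk (-0.21, adjusted p = 0.0105) came next. In Mylk, 7 of 8 Cic-S-KO lungs lay below all WT lungs, which ran from 596.4 to 710.6 CPM. The list had 8 genes lower also without Cic-S-KO replicate 5. In Cic-L-KO lung 0 of the 19 fell and 1 rose, Mrtfa, a coactivator of serum response factor (0.19, adjusted p = 0.0287). Between the knockouts 11 of 19 were lower in Cic-S-KO, led by Cald1 (-0.30, adjusted p = 0.000793), Myh11 (-0.43, adjusted p = 0.000829), Smtn and Mylk, and 0 were higher.

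Of the 24 microfibril-associated and assembly genes, 6 fell and 1 rose in Cic-S-KO lung, beside 5.73% and 9.99% of all genes. The median log2 fold change of the list was -0.068. Mfap4, which codes for a microfibril-associated protein that binds elastin, went from 2919 ± 185 to 2370 ± 216 CPM (SD, n = 8 each), with 7 of 8 Cic-S-KO lungs below all WT (log2 fold change -0.30, edgeR adjusted p = 0.0034). The procollagen-processing protease gene Bmp1 (-0.23, adjusted p = 0.0058), the proteoglycan biglycan gene Bgn (-0.19, adjusted p = 0.00612) and the lysyl oxidase-like gene Loxl2 (-0.23, adjusted p = 0.0198) also fell. The gene that rose was Emilin2, of the emilin family of elastic fibre glycoproteins, from 12.09 ± 3.47 to 22.78 ± 7.57 CPM (0.91, adjusted p = 0.00132). In Cic-L-KO lung, Ltbp3 (0.22, adjusted p = 0.00959) and Ltbp1 (0.21, adjusted p = 0.0178), both latent TGF-beta binding proteins, rose, and the fibulin Efemp1 fell (-0.33, adjusted p = 0.00165). Between the knockouts 8 were lower and 2 higher in Cic-S-KO, the higher being Efemp1 (0.46) and Emilin2 (0.63).

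The list of PDGF, hedgehog and septation signals had 2 of 16 genes lower in Cic-S-KO lung, the hedgehog-binding protein Hhip (-0.30, edgeR adjusted p = 0.0125) and the transcription factor Tbx5 (-0.20, adjusted p = 0.0296), and 0 higher, few genes to set beside the 5.73% of all genes called lower. Without Cic-S-KO replicate 5 the count was 1, and under GC centring 4. In Cic-L-KO lung Shh, the epithelial hedgehog ligand, was higher (0.23, adjusted p = 0.0334) and Fgf9 lower, from 2.66 ± 0.45 to 1.547 ± 0.531 CPM (-0.79, adjusted p = 0.044). Both calls were lost under GC centring, which left 0 of the 16 called there. Exon length centring left 0 higher and 1 lower. Between the knockouts 3 of the 16 were lower and 1 higher in Cic-S-KO lung. Fgf18, a growth factor of septating mesenchyme, was among the lower (-0.41, adjusted p = 0.00231). Of 14 TGF-beta genes, Smad4, the common partner of the receptor-regulated Smads, was the 1 that fell in Cic-S-KO (-0.15, adjusted p = 0.0137), a share near the 5.73% of all genes called lower. In Cic-L-KO 3 rose and 0 fell, beside 2.62% and 2.28% of all genes: the signal transducer Smad3 (0.22, adjusted p = 0.00498), Ltbp1, and the co-receptor Tgfbr3 (0.28, adjusted p = 0.0254). Between the knockouts 6 of these 14 were lower in Cic-S-KO, among them Smad3, Tgfbr3, Ltbp1 and the secreted target Tgfbi (-0.44, adjusted p = 0.000857).

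**Figure D3:**
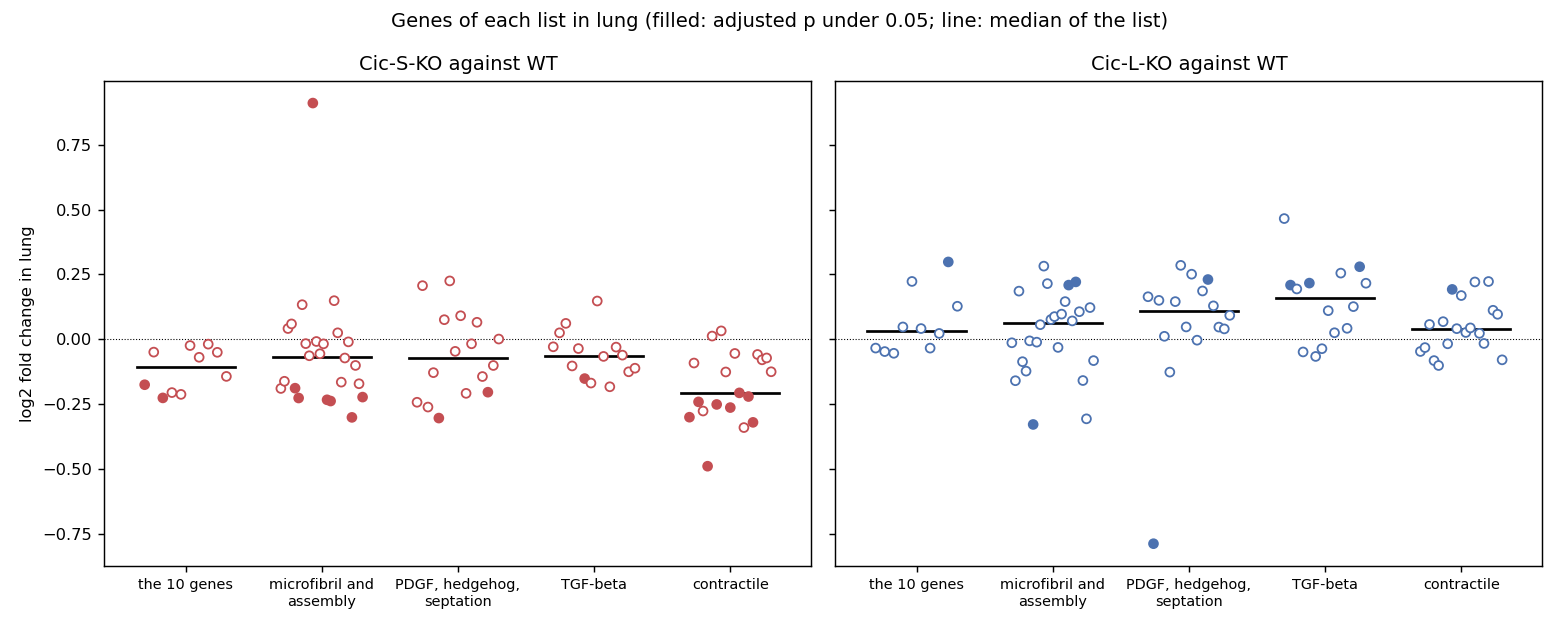
Log2 fold change of each tested gene of the 4 pathway lists in lung, by comparison, with the list's median; filled points passed an adjusted p under 0.05. In Cic-S-KO against WT the 8 called contractile genes all lie below 0.

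Markers of other cells moved in the same lungs. Against WT, 9.99% of all genes were called higher with the short isoform knocked out, and 5.73% lower. With the long isoform knocked out, these shares were 2.62% and 2.28%. A single call in a list of 10 or fewer genes is little to set beside them. In Cic-S-KO, of 10 alveolar myofibroblast markers 2 fell and 0 rose, and their summed level ran from 1557 to 2133 CPM against 1841 to 2444 in WT, 0 of the 10 being at 0 throughout. In Cic-L-KO the sum ran from 2202 to 2579 CPM, and 1 of the 10 rose, Pdgfra itself. This list shares Pdgfra with the members, and Hhip, Fgf18, Tgfbi and Actg2 with the pathway lists. Of 10 alveolar fibroblast and lipofibroblast markers, Mfap4 among them, 5 fell and 2 rose in Cic-S-KO. Their sum of 6487 to 7648 CPM did not overlap the 7718 to 9036 CPM of WT. Mfap4, whose lower level in Cic-S-KO is given above, is a large part of this sum. Adventitial fibroblast markers had 1 of 8 higher and 0 lower there, with sums of 338.9 to 406.4 against 306.6 to 407.4 CPM. Pericyte markers had 4 of 9 lower (1737 to 1990 against 1830 to 2553 CPM), airway and vascular smooth muscle markers 3 of 6 lower (500.1 to 668.1 against 614 to 860.3 CPM), and endothelial markers 3 of 9 lower and 1 higher (3394 to 4564 against 4012 to 4852 CPM). Other lists rose in Cic-S-KO lung: immune cells with 7 of 9 genes higher (1916 to 4333 against 1477 to 2194 CPM), goblet and type 2 inflammation genes with 7 of 8 higher (308.3 to 3050 against 43.39 to 214.6 CPM), and mesothelium with 5 of 6 higher (466.1 to 632.1 against 310.9 to 484.9 CPM). Lung epithelium had 5 of 10 higher, at 21470 to 28270 against 19570 to 24100 CPM. In Cic-L-KO lung mesothelial genes were higher in 4 of 6 (490.8 to 624.9 CPM), 3 of 6 proliferation genes were lower (769 to 1045 against 923.9 to 1215 CPM), and the chondrocyte sum was 66.54 to 87.28 CPM against 26.98 to 39.87 in WT, with 1 of 4 tested genes called. The part of these shifts in the calls of Fbln5, Acta2, Pdgfra and the pathway genes was not tested.

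Within lung, how members varied together from sample to sample was described over the 24 samples after each genotype's mean was removed. These values share library depth and dissection, and they are given as descriptions only. The 45 pairs of members had Pearson correlations from -0.203 to 0.799, with a median of 0.305, 9 above 0.5 and 8 negative. The highest were Eln with Fbln5 (0.799), Fbln5 with Loxl1 (0.786), Eln with Loxl1 (0.746) and Fbn1 with Fbn2 (0.743). Of the 8 negative pairs 7 involved Tagln, and the other was Pdgfra with Acta2 (-0.0543). Among 13089 genes whose mean log2 CPM was 1 or more, those most like Eln were Nuak1 (0.813), Plcg1 (0.802), Fbln5 (0.799), Tmem44 (0.776) and Pkia (0.768). Those most like Acta2 were Myl9 (0.894), Tpm2 (0.753) and Actg2 (0.738), all contractile genes, then Coa7 (0.727) and Elp6 (0.696). Myl9 itself ran from 225.2 to 268.2 CPM in WT lung and from 206.8 to 275.6 in Cic-S-KO, and was not among the called genes.

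In brain, most of the called members were higher in the knockouts than in WT. In WT cortex Pdgfra, at 78.78 ± 6.73 CPM, and Ltbp4, at 60.26 ± 6.91 CPM (SD, n = 8 each), had the highest counts of the members, and the other 8 were at 8.723 CPM or less on average. In cerebellum of Cic-L-KO mice 6 of the 9 tested members rose and 0 fell, beside 21.5% of all genes called in either direction, 10.9% higher and 10.6% lower. In Cic-S-KO cerebellum 4 of 9 rose and 0 fell, beside 8.23% of all genes called in either direction, 4.34% higher and 3.89% lower. Both comparisons share the WT samples. Tagln could not be tested in either brain region because its counts were under the filter on low counts.

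Eln was called in both cerebellum comparisons with WT. Its WT samples ran from 5.608 over a median of 6.699 to 7.534 CPM, Cic-L-KO from 8.131 over 9.271 to 11.26, and Cic-S-KO from 7.38 over 7.769 to 11.37. All 8 Cic-L-KO samples and 6 of 7 Cic-S-KO samples were above every WT sample. The log2 fold changes were 0.50 (SE 0.0916, edgeR adjusted p = 0.000305) and 0.38 (SE 0.0952, adjusted p = 0.0138). Acta2, at 2.758 to 4.608 CPM in WT (median 3.662), was at 4.505 to 5.322 in Cic-L-KO (median 4.998) and 3.408 to 6.747 in Cic-S-KO (median 5.557). Its log2 fold changes were 0.44 (adjusted p = 0.00477) and 0.58 (adjusted p = 0.00221).

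Fbn2 rose in Cic-S-KO cerebellum by 0.98 on the log2 scale (SE 0.227, edgeR adjusted p = 0.00823), from 0.6168 to 1.867 CPM in WT (median 0.7841) to 1.314 to 2.248 CPM (median 1.956), on medians of 20.5 and 44 counts. In Cic-L-KO it was at 0.51 and not called (adjusted p = 0.108). Ltbp4 rose in both: 25.5 to 36.91 CPM in WT, 36.66 to 44.05 in Cic-L-KO (0.37, adjusted p = 0.0082) and 28.58 to 48.46 in Cic-S-KO (0.39, adjusted p = 0.0204). The Cic-S-KO samples were split: replicates 5 to 7 were at 47.72 to 48.46 CPM and the other 4 at 28.58 to 39.14. Without Cic-S-KO replicate 6 that call was lost (0.34, adjusted p = 0.0578), as it was with no filter on low counts (adjusted p = 0.0639) and when only the compared genotypes were fitted (adjusted p = 0.0592). Fbn1 (0.54, adjusted p = 0.0379), Fbln5 (0.36, adjusted p = 0.0307) and Pdgfra (0.29, adjusted p = 0.0137) rose in Cic-L-KO. With no filter on low counts the calls of Fbn1 (adjusted p = 0.102) and Fbln5 (adjusted p = 0.0944) were lost. In Cic-S-KO their estimates of 0.32, 0.087 and 0.14 were not called. Between the 2 knockouts 0 of 9 members passed in cerebellum by edgeR, beside 12.4% of all genes called in either direction, 6.06% higher and 6.38% lower. Before adjustment 2 had a p under 0.05 by the same edgeR test, Fbn2 with a log2 fold change of 0.47 and Fbln5 with -0.28, and DESeq2 also called 0.

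In cortex of Cic-L-KO mice 4 of 9 members rose and 0 fell, where 43.2% of all genes were called in either direction, 21.4% higher and 21.9% lower. Ltbp4 moved the most: 49.5 to 70.62 CPM in WT (median 60.47), 78.92 to 91.62 in Cic-L-KO (median 84.76), and 63.19 to 76.19 in Cic-S-KO (median 70.92). All 8 Cic-L-KO samples lay above all WT samples, and 5 of 7 Cic-S-KO samples did. The log2 fold changes were 0.51 (SE 0.0535, edgeR adjusted p = 7.38e-09) and 0.23 (SE 0.0555, adjusted p = 0.0143). Eln (0.41, adjusted p = 0.01), Fbn2 (0.42, adjusted p = 0.00363) and Fbn1 (0.31, adjusted p = 0.0154) also rose there. In cortex of Cic-S-KO mice, where 6.53% of all genes were called, 2.83% higher and 3.7% lower, Ltbp4 was called higher and Fbln5 lower. Fbln5 ran from 2.957 over a median of 5.77 to 6.574 CPM in WT cortex and from 2.824 over 4.135 to 4.356 CPM in Cic-S-KO cortex (log2 fold change -0.49, SE 0.144, edgeR adjusted p = 0.0384). That Fbln5 call was lost under GC centring (adjusted p = 0.0772) and when only the compared genotypes were fitted (adjusted p = 0.055). Under GC centring the Ltbp4 call in Cic-S-KO cortex was lost too (0.14, adjusted p = 0.114). Between the knockouts 4 of 9 members were lower in Cic-S-KO, beside 33.9% of genes called in either direction, 17.4% higher and 16.5% lower: Ltbp4 (-0.28), Fbn1 (-0.33), Fbln5 (-0.40) and Pdgfra (-0.14, adjusted p = 0.0448), the last of which was lost with no filter on low counts (adjusted p = 0.078), under GC centring (0.0855) and under exon length centring (0.0979).

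**Figure D4:**
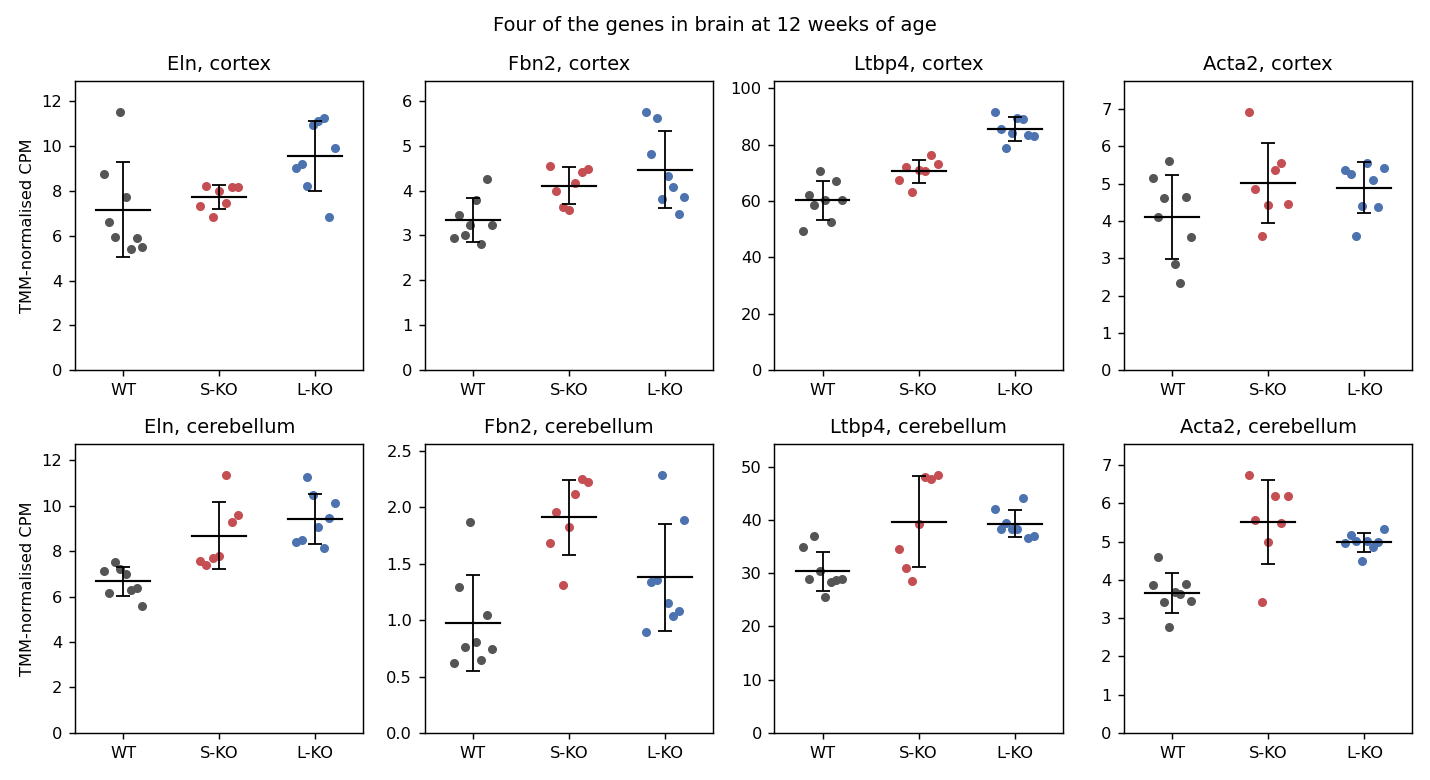
CPM of 4 of the genes in each cortex and cerebellum sample by genotype, with the mean and SD, 8 samples a group and 7 in Cic-S-KO. All 8 Cic-L-KO samples are above all WT samples for Ltbp4 in cortex and for Eln in cerebellum.

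Endothelial markers were higher in the same Cic-L-KO brain samples, and meningeal markers in cerebellum. Of all genes, 10.9% were called higher and 10.6% lower in Cic-L-KO cerebellum, and 21.4% and 21.9% in Cic-L-KO cortex. In Cic-L-KO cerebellum 6 of 9 meningeal and perivascular fibroblast markers rose, with a sum of 280.8 to 345.6 CPM against 220 to 265.9 in WT, and 6 of 8 tested endothelial markers rose (223.2 to 289.6 against 183.1 to 222.5 CPM). In Cic-L-KO cortex 5 of 8 endothelial markers rose (151.9 to 190.9 against 110.6 to 162.7 CPM), while 6 of 7 neuronal markers fell (5499 to 6364 against 7534 to 8260 CPM). Meningeal and perivascular fibroblast markers in Cic-L-KO cortex had 2 of 9 higher and 2 lower, near the shares of all genes. Their sums were 129.1 to 203.6 against 112.1 to 191.4 CPM. Smooth muscle marker sums in Cic-L-KO cerebellum were 286.9 to 360.8 against 276.2 to 372.5 CPM, with 2 of 5 genes higher. In Cic-L-KO cortex they were 239.1 to 256.3 against 212.5 to 270.4 CPM, with 1 of 5 higher. Pericyte sums also overlapped WT, with 1 of 9 genes higher in Cic-L-KO cerebellum and 3 of 9 in cortex. In Cic-S-KO cerebellum the meningeal sum was 202.4 to 308.9 CPM with 2 of 9 higher and 1 lower, beside 4.34% and 3.89% of all genes. Endothelial markers there had 0 of 8 higher and 1 lower (159.6 to 210.9 against 183.1 to 222.5 CPM). Oligodendrocyte precursor markers, with which Pdgfra is shared, had 1 of 8 higher, Pdgfra itself, and 1 lower in Cic-L-KO cerebellum. Their part in the brain results was not tested.

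Whether a knockout effect differed between lung and brain was tested directly, as the effect in lung minus the mean of the effects in cortex and cerebellum, over 70 samples. For Cic-S-KO 3 of 10 members had a lower effect in lung and 0 a higher one, beside 9.16% of 19821 genes called in either direction, 5.52% higher and 3.64% lower. They were Fbn2 (difference in log2 fold change -0.86, SE 0.158, edgeR adjusted p = 0.000125), Acta2 (-0.62, SE 0.12, adjusted p = 0.000299) and Ltbp4 (-0.33, SE 0.0842, adjusted p = 0.00685). For Acta2 the effects were -0.18 (lung), 0.30 (cortex) and 0.58 (cerebellum), of which the cortex value was not called (adjusted p = 0.251). For Cic-L-KO there were 4 of 10, beside 12.3% of genes called in either direction, 6.24% higher and 6.05% lower: Eln (-0.49, SE 0.124, adjusted p = 0.00407), Ltbp4 (-0.41, SE 0.0832, adjusted p = 0.000356), Acta2 (-0.37, SE 0.119, adjusted p = 0.029) and Loxl1 (-0.37, SE 0.13, adjusted p = 0.0477). Loxl1 was not called against WT in any single tissue of Cic-L-KO, its effects being -0.034 (lung), 0.37 (cortex) and 0.31 (cerebellum). Its interaction call was lost with relative log expression scaling (edgeR adjusted p = 0.053). With no filter on low counts the calls of Loxl1 (0.115) and Acta2 (0.0727) were both lost. Fbln5 was not called in this test for Cic-S-KO (-0.029, adjusted p = 0.946), its effects being -0.23 (lung), -0.49 (cortex) and 0.087 (cerebellum). Pdgfra was not called for Cic-L-KO (0.15, adjusted p = 0.279), its effects being 0.30 (lung), 0.020 (cortex) and 0.29 (cerebellum). The Tagln difference of 1.58 for Cic-S-KO (adjusted p = 0.0662) rests on brain medians of 0 to 2 counts. Since each effect lies within a tissue, tissue, age and batch cannot be told apart in these differences either. The library names of Cic-S-KO cortex and cerebellum skip the same number. If both regions were taken from the same mice, the fit, which treats the 70 samples as independent, does not account for it.

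**Figure D5:**
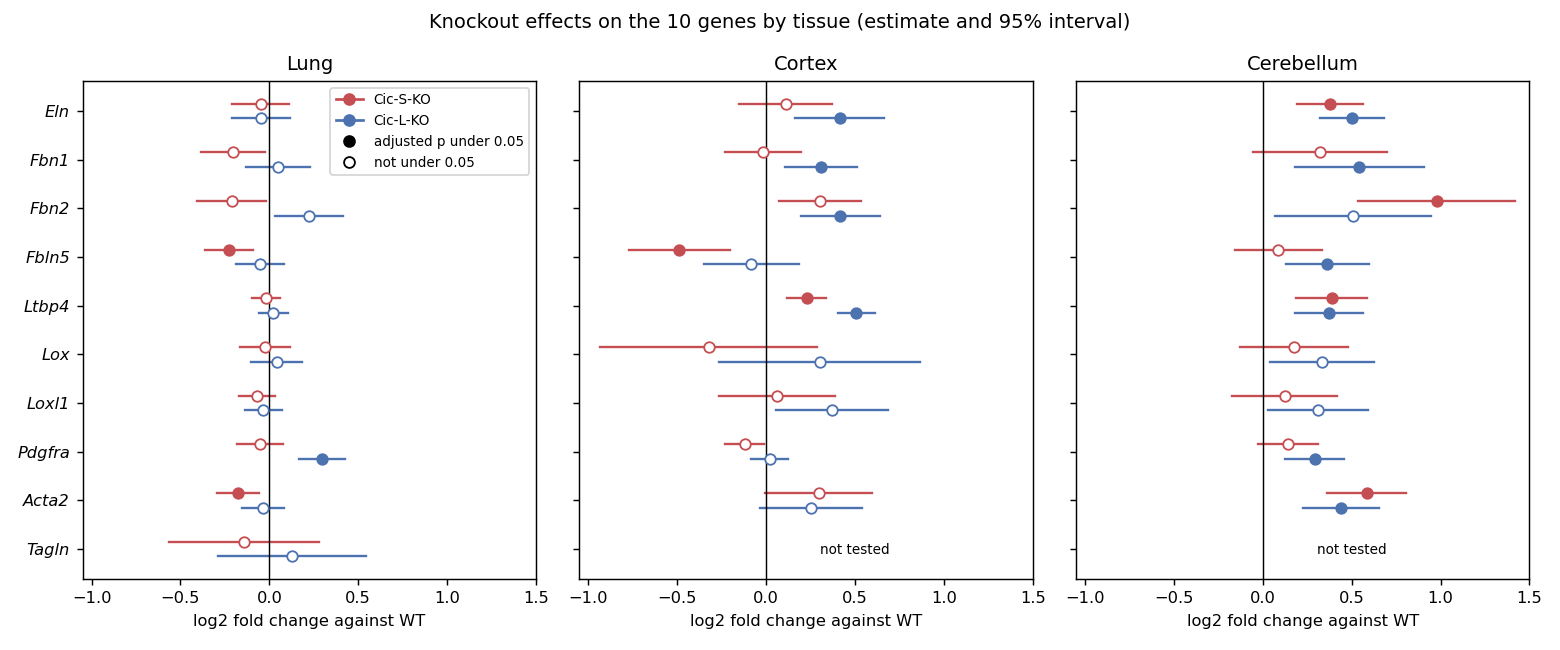
Log2 fold change of each gene against WT in lung, cortex and cerebellum, for Cic-S-KO and Cic-L-KO, with 95% intervals; filled points passed an adjusted p under 0.05, and Tagln was not tested in brain. The lung estimates lie near 0, at -0.23 for Fbln5 and 0.30 for Pdgfra at the extremes, and all cerebellum estimates shown lie above 0.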

How the data were processed

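RNA from lung, cortex and cerebellum was counted per gene, and the authors deposited raw counts for 50789 rows and 70 samples. Each column matched 1 sample, leaving 0 without one. Reads were handled with STAR 2.7 and GRCm38.p6, per the submitters' processing notes. The counting program, its annotation and its use of strand are not given in the sources used here. Of the identifiers, 50725 matched GENCODE M21 (GRCm38) without their version and 64 did not. Some listed genes had no row and are not analysed here.

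Groups were taken from the labels. Counts were tested with edgeR 4.0.16 in R 4.3.3: filterByExpr on genotype, TMM, a robust quasi-likelihood fit with the 3 genotypes of a tissue together, and Benjamini-Hochberg adjustment over all genes tested (16695 in lung, 16974 in cortex, 16643 in cerebellum). An adjusted p under 0.05 counted as a call. A fit over the 9 groups and 19821 genes gave the interaction of knockout and tissue. Standard errors were derived from the F statistic, and 95% intervals assume a normal error. CPM values are TMM-normalised and scaled to the counts in tested genes. The fit was also run on counts simulated from the lung data, and the outcome is not given here. Pairs of replicates were compared, and 0 were identical.

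The members and lists were chosen with earlier results of these data known. Besides the 10 members, at most 4 genes a direction were named per list by smallest p, and the 5 most like Eln and Acta2. Promoter windows came from RefSeq. Alternatives were DESeq2 1.42.0, other normalization and filters, GC and exon length bins, a minimum fold change, a Y-linked covariate, fits on the compared genotypes only, each lung library left out, and a replicate block. The main fits did not use the replicate numbers as pairs, because the lowest correlation of a same-numbered lung pair was -0.0531. On average such lung pairs were positively correlated. The mean was 0.141 for WT and Cic-S-KO, 0.16 for WT and Cic-L-KO, and 0.136 for Cic-S-KO and Cic-L-KO. The main lung tests do not account for this tendency.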

Additional observations from a re-analysis of the deposited data

Results flagged for a closer look

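Single samples stood apart from the rest of their group in 4 of 90 groups of member levels, where chance gives about 1 in 20. In cortex, WT replicate 6 was the lowest in 2 genes: Fbln5 was at 2.957 CPM there against 5.147 to 6.574 in the other 7 WT samples, and Loxl1 at 1.257 CPM against 2.402 to 2.883. In cerebellum, Cic-S-KO replicate 6 had 16.5 CPM of Fbn1 against 7.309 to 10.02 in the other 6, and was the only sample of its group with any Tagln count, at 0.03458 CPM against 0.

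Knockout effects differed between lung and brain, by the interaction test, in 3 members for Cic-S-KO and 4 for Cic-L-KO. For Cic-S-KO the effect in lung minus the mean brain effect was -0.3273 for Ltbp4, -0.8595 for Fbn2 and -0.6164 for Acta2. For Cic-L-KO it was -0.4949 for Eln, -0.4085 for Ltbp4, -0.3706 for Loxl1 and -0.3703 for Acta2. The Loxl1 call was lost with relative log expression scaling, and those of Loxl1 and Acta2 with no filter on low counts. Lung and brain differ in age and batch label as well as tissue, and these cannot be told apart.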

How the results depend on the processing

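Of 949 single-gene values recomputed under settings other than leaving out a lung library, 891 kept their direction and side of the threshold, 38 lost a call, 11 gained one and 9 changed sign. A minimum absolute log2 fold change of 0.5 left 0 members called in the 3 lung comparisons, 1 in cortex for Cic-L-KO and 0 in the other cortex comparisons, and 2 in each knockout's cerebellum. Centring by GC content left 0 in Cic-S-KO cortex, where Fbln5 had adjusted p = 0.0772 and Ltbp4 0.114 by edgeR, and turned Ltbp4 in Cic-L-KO lung to -0.0418 and Loxl1 in Cic-S-KO cortex to -0.0293. Centring by exon length left 1 in Cic-S-KO lung and gave Eln 0.0236, Ltbp4 0.017 and Pdgfra 0.0162 there, Eln 0.0473 between the lung knockouts and Fbn1 0.00288 in Cic-S-KO cortex. Fitting only the compared genotypes left 1 call in Cic-S-KO cortex (Fbln5 lost, adjusted p = 0.055). With no filter on low counts, 2 members were called in the Cic-L-KO interaction, Acta2 (adjusted p = 0.0727) and Loxl1 (0.115) being lost. With relative log expression scaling Loxl1 was lost there too (edgeR adjusted p = 0.053). The cause of these shifts was not tested.

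Leaving out each lung library gave 1 to 2 calls in Cic-S-KO, 1 in Cic-L-KO and 2 to 3 between the knockouts. The estimates for Eln between the lung knockouts ran from -0.0482 to 0.044. In Cic-L-KO lung Fbn1 ran from -0.00329 to 0.105 and Lox from -0.00352 to 0.0775, both negative without Cic-L-KO replicate 8, and Ltbp4 from -0.000366, without WT replicate 1, to 0.0385. Added after seeing the data, leaving out WT replicate 6 in cortex turned Loxl1 in Cic-S-KO to -0.03655 and Pdgfra in Cic-L-KO to -0.002475. Leaving out Cic-S-KO replicate 6 in cerebellum turned Fbln5 in Cic-S-KO to -0.01887 and Ltbp4 between the knockouts to -0.03768, and gave 1 call between the knockouts, Fbln5 (-0.39, edgeR adjusted p = 0.0232). List counts recomputed later gave 4 PDGF and hedgehog genes in Cic-S-KO lung under the relative log expression scaling and under GC centring, and 5 microfibril genes in Cic-L-KO lung under exon length centring. GC centring gave 0 PDGF and hedgehog genes and 0 contractile genes there.

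With the replicate number as a block, 4 members were called for lung of Cic-S-KO mice (Fbn1 and Fbn2 added, edgeR adjusted p = 0.0421 and 0.0177), 2 for that of Cic-L-KO mice (Fbn2 added, 0.034) and 1 in Cic-S-KO cortex (Fbln5 not called, 0.0957). Fbn1 between the lung knockouts passed (0.0166), Ltbp4 (0.0853) in Cic-S-KO and Fbn1 (0.0888) in Cic-L-KO cerebellum did not, nor did Fbln5 (0.0721) between the cortex knockouts, where Eln (0.0493) and Lox (0.0269) passed. Under the block Fbn1 in Cic-S-KO cortex was 0.000999 and Ltbp4 between the cerebellum knockouts -0.00359. The numbers were not taken as pairs, since some same-numbered samples had correlations near or below 0. A sample correlated best with its own number in 4, 6 and 2 of 8 cases in the 3 lung comparisons, above the 1 of 8 that chance gives. Same-numbered lung samples thus tended to deviate together, which the main lung fits do not account for and the block fit does. Depth limits Tagln throughout and Fbn2 and Lox in brain, whose median counts per library were as low as 20.5 and 14.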
